A study of Homo sapiens with 18 samples.

Results

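The genes described here encode SR and hnRNP proteins, and the data are the RNA regions recovered with MYC, a transcription factor, by eCLIP, an enhanced form of crosslinking, immunoprecipitation and sequencing. Members were the RefSeq protein-coding genes whose symbol is SRSF followed by a number, TRA2A or TRA2B (14 SR genes), or begins with HNRNP (26 hnRNP genes). These are 40 of 20052 protein-coding genes. A peak was counted for a gene when their spans shared at least 1 bp. Protein was linked to RNA with ultraviolet light, the tagged protein was pulled down, and the RNA attached to it was read. All groups used U2OS cells, from a human osteosarcoma, with their own MYC knocked out and a FLAG-tagged MYC, wild type or one of the mutants 3A and 7A, under doxycycline control. Which residues 3A and 7A alter, and whether the lines are single clones, is not in the labels. The series holds 18 libraries in 12 groups: for each of 3 alleles, 2 precipitated libraries and 1 input library from cells given doxycycline (1 µg/mL for 24 h), and as many from cells given PBS for 24 h. The values below come from 3 peak lists, 1 for each allele with doxycycline. No peak list of cells given PBS was analysed here. A single list stood for each allele, so values have no replicate check, no test was made, and the depth behind the lists is unknown.

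SR proteins carry RNA recognition motifs and a tail rich in arginine and serine, bind exonic sequences and mostly favour the use of nearby splice sites. The hnRNP proteins coat nascent transcripts, and many of them repress splice sites, retain or stabilise RNA. Many genes of both families limit their own output by splicing their transcripts into forms that are degraded. What is mapped here is RNA made from these genes, not the binding of the proteins they encode.

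The wild-type list held 34 peaks in 19 of the 40 genes (47.5%, 95% Wilson interval 32.9 to 62.5), while 6.78% of all protein-coding genes had at least 1 wild-type peak. Peaks lay in 5 of 14 SR genes (35.7%, interval 16.3 to 61.2) and 14 of 26 hnRNP genes (53.8%, interval 35.5 to 71.2). The difference between the families was not tested, since genes are not replicates of a condition. Of the 40 genes, 11 (27.5%) had 2 or more wild-type peaks, against 2.00% of all protein-coding genes. In the 3A list 3 members had a peak, SRSF1, SRSF9 and HNRNPD (7.5%, against 0.359% of all protein-coding genes). The lists differ in length: among the top 103 wild-type peaks by −log10 q, as many as the 3A list holds, 4 members and 0 SR genes had a peak, against 3 members and 2 SR genes for 3A. The first SR peak, in SRSF1, ranked 107, just below this cut, so the SR counts depend on where it falls. The share of all protein-coding genes at this cut was not counted. When peaks below the median fold enrichment of their list were dropped, 12 members had a wild-type peak and 1 had a 3A peak. The shares of all protein-coding genes after this step were not counted either. In the 7A list 0 of 40 had a peak (0.269% of all protein-coding genes), which allows a share of up to 7.5%. RNA abundance was not measured in these lists, and its part in these counts was not tested.

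In 5 members, wild-type peaks at the start of the gene reached into the first 50 transcribed bases, for which RefSeq (GRCh38.p14) lists the sequence. The 30 bases from 21 to 50 of the transcript are shown for these, since they are RNA sequence the wild-type peaks reach. Capitals mark bases inside the peak, and T stands for U.
SRSF1: GGAGACGTGGTGCCGCTGCGGGCTCGCTCT
SRSF6: CGCCCCTGTGGTGTGAGGCGCGTGTTCGGG
TRA2B: gcggagcatttcgGCTCTGAGCGGCTGGGC
HNRNPA2B1: CCGTGCGGAGGTGCTCCTCGCAGAGTTGTT
HNRNPAB: acggagcttggctgtTGGTCGGTGGGTTCC
The stretches lie at chr17:58007197-58007226 (SRSF1, minus strand), chr20:43457916-43457945 (SRSF6, plus), chr3:185937965-185937994 (TRA2B, minus), chr7:26200697-26200726 (HNRNPA2B1, minus) and chr5:178204553-178204582 (HNRNPAB, plus). All 5 are rich in G and C, from 63.3% in the hnRNP pair to 73.3% in SRSF1 and SRSF6. The peak of HNRNPA2B1 began at base 4 of the transcript, that of SRSF1 at base 9, SRSF6 at base 21, TRA2B at base 34 and HNRNPAB at base 36.

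**Figure D1:**
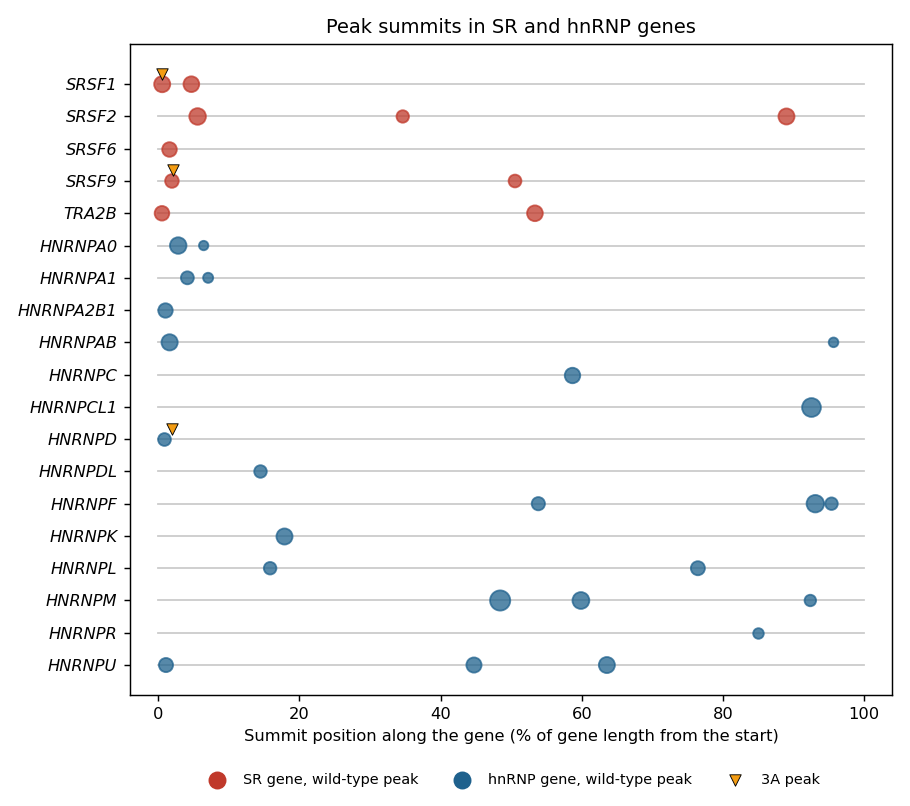
Each row is a member gene with a peak, drawn from its annotated start (0%) to its end (100%), and each circle is a wild-type peak summit with its area proportional to the authors' fold enrichment. Triangles are 3A peaks. All 5 SR rows have a circle at the left edge, as do 6 of the 14 hnRNP rows.

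Each of the 5 SR genes with a wild-type peak had one at its start. Within 500 bp of the annotated start lay 5 of the 10 SR summits, at 96 to 184 bp, and 7 of the 24 hnRNP summits, at 97 to 450 bp. By gene this was 5 of 5 SR genes and 6 of 14 hnRNP genes, 57.9% of the 19 members together. Of all protein-coding genes with a wild-type peak on their strand, 64.1% had one there, so the share of the members was near the background. Counted by peak, 12 of 34 member summits (35.3%, Wilson interval 21.5 to 52.1) lay at the start, against 42.8% over the 2002 pairs of a wild-type peak and a protein-coding gene on the same strand. Shares over all pairs below refer to these 2002. Of the 34 member peaks, 32 lay in genes whose strand is listed and all 32 were on it, against 94.6% of all pairs with a listed strand, whichever strand the peak was on. The strand of SRSF2 and HNRNPA1 was taken from their peaks, as for every gene without a listed strand. Such pairs match in strand by construction, and the peak decides which end is the start. They are among the 2002 pairs, of which 1652 had a listed strand, and among the genes behind the 64.1%.

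SRSF1, the founding member of the SR family, had 2 wild-type peaks in its first 1000 bp, 1 of them at the start. The nearer, chr17:58006983-58007238, had its summit 103 bp from the start, with fold enrichment 9.93 and −log10 q 77.7. The other, chr17:58006302-58006835, had its summit at 855 bp (fold enrichment 9.49, −log10 q 65.7). These were the SR peaks of highest −log10 q, and both lay in the upper part of the wild-type list, at ranks 107 and 136 of 2149. The fold enrichment is the authors' ratio over a control that is not named, and the −log10 q is their measure of confidence, so both are used only within a list.

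SRSF2, an activator of exon inclusion that marks nuclear speckles, was covered over more of its length than any other SR gene. Its 3 peaks had summits at 184, 1142 and 2934 bp from the start of a gene of 3297 bp. The fold enrichments were 10.6, 5.95 and 9.89 in that order, and 10.6 was the highest of the SR genes. The start peak, chr17:76736601-76737317, was 717 bp wide and also overlaps the span of MFSD11, whose listed strand is plus, while the peak is on the minus strand. The middle peak, chr17:76736124-76736461, overlaps the annotated microRNA gene MIR636 inside SRSF2.

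The other SR genes with peaks were SRSF6, SRSF9 and TRA2B. SRSF6, a regulator of exon choice, had a single peak, chr20:43457916-43458084, with its summit 96 bp from the start (fold enrichment 8.24, −log10 q 38.8). SRSF9, which is close in sequence to SRSF1, had a start peak at 157 bp (fold enrichment 7.11, −log10 q 55.6) and one at 4082 bp (6.31 and 18.0). TRA2B, which binds GA-rich exonic enhancers, had a start peak at 125 bp (8.21 and 29.8) and one at 12517 bp in its interior (9.54 and 20.5). In both genes the start peak was the one of higher −log10 q. No peak in any list lay in SRSF3, SRSF4, SRSF5, SRSF7, SRSF8, SRSF10, SRSF11, SRSF12 or TRA2A.

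Among the hnRNP genes, start peaks lay mainly in the A/B and D branch, whose members share a pair of RNA recognition motifs. Of its 9 genes, 6 had a wild-type peak and 5 of these had one at the start. The branches were set after the data were seen and are given as a description. HNRNPA2B1, whose protein also acts in RNA transport, had the member peak of highest −log10 q, 132, rank 32 of the wild-type list. It lay at chr7:26200547-26200743 with its summit 97 bp from the start and a fold enrichment of 8.02. HNRNPAB had a start peak of nearly the same −log10 q, 129.5 (chr5:178204568-178205053, summit at 107 bp, fold enrichment 10.1). Its second peak, at 6343 bp near the end of the gene, (3.60 and 8.38) lies where the span of PHYKPL on the other strand also runs.

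HNRNPD, known as AUF1 and as a binder of AU-rich elements in unstable messages, had 1 wild-type peak, at its start. The peak at chr4:82373463-82373886 had its summit at 177 bp (fold enrichment 6.32, −log10 q 88.1). Its paralog HNRNPDL had 1 peak, not at the annotated start but 1137 bp from it, or 900 bp from the nearest of the starts that RefSeq lists (6.09 and 26.0). HNRNPA0 had summits at 247 bp (fold enrichment 10.5, −log10 q 50.2) and 561 bp (3.41 and 6.78), and the latter was the weakest member peak by both measures. HNRNPA1, an abundant splicing repressor, had summits at 263 bp (6.45 and 18.8) and 450 bp (3.92 and 10.7). HNRNPA3, HNRNPA1L2 and HNRNPA1L3 had none. HNRNPA1 has many pseudogene copies, and reads from similar copies can be placed at the wrong one.

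HNRNPU, also known as scaffold attachment factor A, joined a wide start peak with interior ones. The start peak, chr1:244863664-244864455, was 792 bp wide with its summit at 157 bp (fold enrichment 7.70), and its −log10 q of 99.9 ranked 57 in the list. The interior summits lay at 6372 bp (8.84 and 29.7) and 9054 bp (9.92 and 24.1). HNRNPUL1 and HNRNPUL2 had no peak.

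The remaining hnRNP genes with peaks had none within 500 bp of the annotated start. HNRNPM, a splicing regulator in epithelial and mesenchymal programmes, had the member peak of highest fold enrichment, 15.6, at chr19:8466289-8466396, 21379 bp from the start. That peak ranked 235 by fold enrichment and 584 by −log10 q (29.3) in the wild-type list, and the other peaks of the gene lay at 26428 bp (10.9 and 15.5) and 40771 bp (5.10 and 32.1). HNRNPF, which binds runs of G, had summits at 12690 bp (6.76 and 20.6), 21937 bp (11.7 and 49.6) and 22478 bp (6.03 and 26.0) in a gene of 23569 bp. Its peak at 21937 bp, chr10:43386852-43387852, was the widest of the members, 1001 bp. By their annotated spans these 2 genes thus held peaks in their middle and towards their ends. The HNRNPF summit at 12690 bp, however, lay 781 bp past another start that RefSeq lists for the gene.

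HNRNPL, which binds CA-rich RNA, had summits at 2533 bp (fold enrichment 6.06, −log10 q 51.4) and 12214 bp (7.58 and 18.2). The former is 172 bp past a second start that RefSeq lists for the gene, so it counts as a start peak when every listed start is used. HNRNPK, a binder of C-rich RNA, had 1 peak at 2237 bp (9.92 and 24.1). HNRNPC, which binds runs of U, had 1 peak at 35309 bp in a gene of 60296 bp (9.21 and 16.1). HNRNPR had 1 peak at 33631 bp (4.34 and 10.1). HNRNPCL1, a short gene similar to HNRNPC, had 1 peak at 1243 bp of its 1344 bp (13.6 and 20.2), and which copy those reads came from is uncertain. Without a peak were HNRNPH1, HNRNPH2, HNRNPH3, HNRNPLL, HNRNPCL2, HNRNPCL3 and HNRNPCL4. The annotation used here gives no exons, so interior peaks were not assigned to exons or introns.

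**Figure D2:**
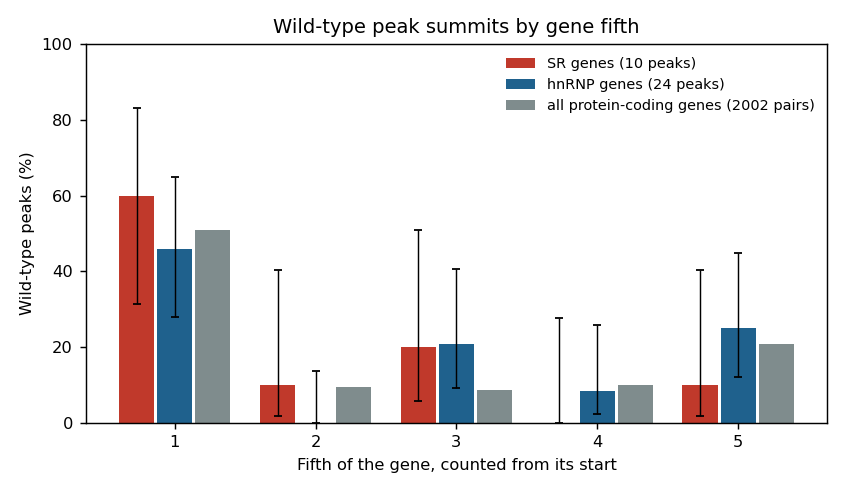
Bars give the share of wild-type peak summits in each of 5 equal parts of the gene, counted from the start, for SR genes (10 peaks), hnRNP genes (24 peaks) and all pairs of a wild-type peak and a protein-coding gene on the same strand (2002). Error bars are 95% Wilson intervals over peaks. They are not a test against the grey bars, since peaks of the same gene share their source. The interval of the middle part of hnRNP genes is 9.24 to 40.5, and the grey bar there is 8.69%. The hnRNP summits in that part include several of the same gene, HNRNPM, and the HNRNPF summit 781 bp past another listed start. All other intervals include the grey bar.

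With each gene divided into 5 equal parts, the first part held 6 of 10 SR summits (60.0%, 95% Wilson interval 31.3 to 83.2) and 11 of 24 hnRNP summits (45.8%, interval 27.9 to 64.9). Over all pairs of wild-type peaks and protein-coding genes it was 50.9%. The middle part held 7 of 34 member summits (20.6%, interval 10.3 to 36.8), against 8.69% over all pairs. The second part held 1 of 34 and the fourth 2 of 34, against 9.49% and 10.1% over all pairs. The summits of the middle part were in TRA2B, SRSF9, HNRNPU, HNRNPF and HNRNPC and a pair in HNRNPM. That of HNRNPF lay 781 bp past another listed start, and the parts are counted from the annotated start only. The last part held 7 of 34 (20.6%), against 20.8% over all pairs, with 6 of them in hnRNP genes and 1 in SRSF2. Intervals cover counting error over peaks only, and peaks of 1 gene share their source, so they are not a test against the shares over all pairs.

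Member peaks were typical of the wild-type list in fold enrichment. Their median was 8.11 (range 3.41 to 15.6), and the median of all 2149 peaks was also 8.11. By family the median fold enrichment was 8.87 in SR genes and 7.64 in hnRNP genes. By −log10 q the median was 28.5 for members and 17.8 for the list, and 28 of 34 member peaks, among them all 10 SR peaks, were at or above the median of the list. Member peaks at the start had a median −log10 q of 57.8 and a median fold enrichment of 8.11, and the 22 others had medians of 24.1 and 8.21. Over all wild-type peaks on the strand of a protein-coding gene that they overlap, the median −log10 q was 17.4 at the start and 17.3 elsewhere. Median widths differed in direction between the families: start peaks and others had 256 and 338 bp in SR genes, and 197 and 125 bp in hnRNP genes. Over all such peaks the widths were 173 and 165 bp. These differences were not tested.

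**Figure D3:**
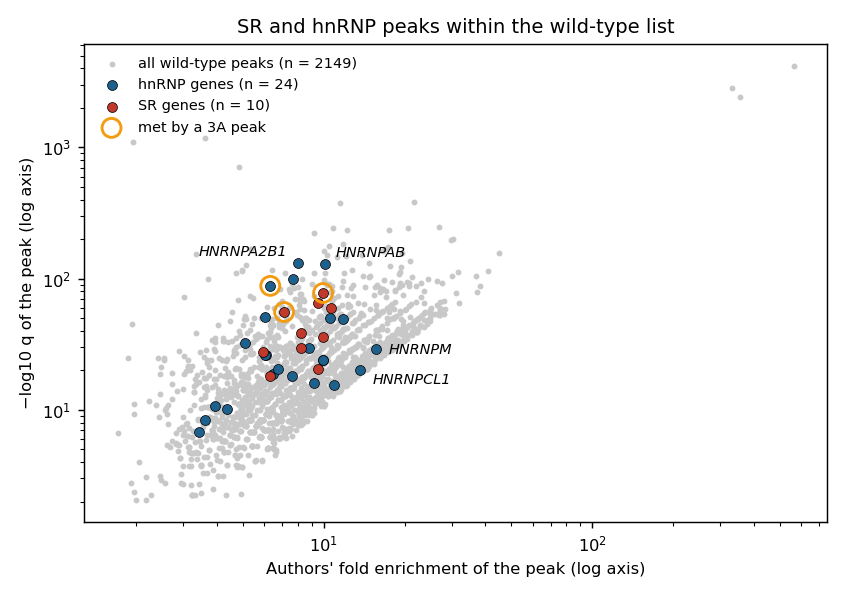
Each point is a wild-type peak, with the authors' fold enrichment on the horizontal and −log10 q on the vertical log axis, and SR and hnRNP peaks are coloured. The peaks of HNRNPA2B1 (132) and HNRNPAB (129.5) are highest among the members, HNRNPM (15.6) lies farthest right, and rings mark the 3 peaks met by a 3A peak.

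All 3 3A peaks in member genes lay on a wild-type start peak of the same gene, on the same strand. They met 3 of the 34 wild-type member peaks (8.82%, 95% Wilson interval 3.05 to 23.0), against 3.54% of all wild-type peaks. Each was contained whole in its wild-type peak. By start position they met 3 of 12 start peaks (25.0%, interval 8.89 to 53.2), against 3.90% of all wild-type peaks at the start of a protein-coding gene, and 0 of the 22 others. By family they met 2 of 10 SR peaks and 1 of 24 hnRNP peaks. Member start peaks and all start peaks are unlike in −log10 q, with medians of 57.8 and 17.4. Of all wild-type peaks at rank 187 or better by −log10 q, 27.8% were met by a 3A peak, so 25.0% against 3.90% is not a comparison at like rank.

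At SRSF1 (gene ID 6426) the 3A peak, chr17:58007014-58007218, covered 80.1% of the wild-type peak, and their summits were 2 bp apart. Its fold enrichment in the 3A list was 6.26, rank 48 of 103. At SRSF9 (gene ID 8683) the 3A peak, chr12:120469446-120469633, covered 69.6% of the wild-type peak, with summits 12 bp apart. Its fold enrichment was 3.98, rank 75 of 103. At HNRNPD (gene ID 3184) the 3A peak, chr4:82373464-82373648, covered 43.6% of the wild-type peak, at the end farther from the gene start, and the summits were 248 bp apart. Its fold enrichment was 2.58, rank 94 of 103. The positions were thus nearly the same in the SR pair and offset in HNRNPD.

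**Figure D4:**
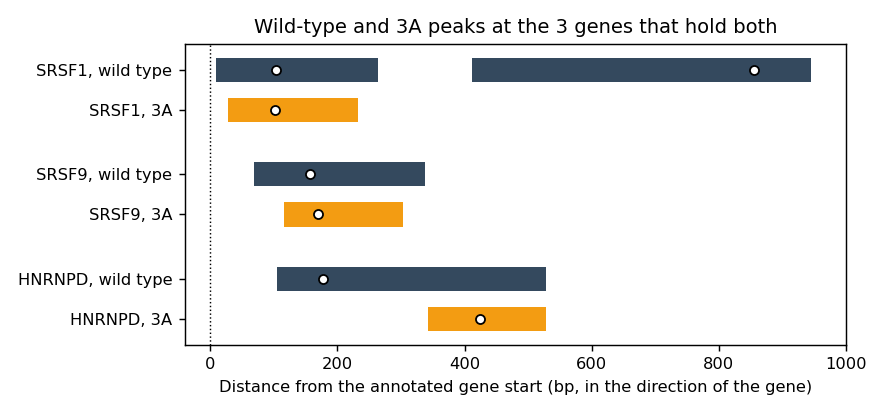
Bars are wild-type (dark) and 3A (orange) peaks by distance in bp from the annotated start of the gene, and white dots are summits. Summits of both alleles lie within 12 bp of each other in SRSF1 and SRSF9, and 248 bp apart in HNRNPD.

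The member peaks of highest wild-type −log10 q were not those met by 3A. HNRNPA2B1, HNRNPAB and HNRNPU, at ranks 32, 34 and 57 of the wild-type list, had no 3A peak, whereas HNRNPD, SRSF1 and SRSF9 had ranks 81, 107 and 187. Over all wild-type peaks, a 3A peak met 27 of the 57 at rank 57 or better (47.4%). It met 0 of the 3 member peaks there (95% Wilson interval 0 to 56.1, which includes 47.4). At rank 187 or better it met 52 of all 187 (27.8%) and 3 of the 8 member peaks (37.5%, 95% Wilson interval 13.7 to 69.4). These ranks are those of the HNRNPU and SRSF9 start peaks and were chosen after their values were seen. No 7A peak met any of the 34 member peaks, which allows a share of up to 8.82%, and 1.40% of all wild-type peaks were met by one. At the number of mutant peaks listed, a lower share than in the rest of the list was therefore not detectable.

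MYC is known to bind the DNA sequence CACGTG, the E-box, upstream of many genes, so the sequence before the start of the 3 genes with peaks of both alleles is shown. The 250 bases upstream of each start, from RefSeq (GRCh38.p14), end at the base before the transcript, and capitals mark CACGTG, which reads the same on both strands.
HNRNPD: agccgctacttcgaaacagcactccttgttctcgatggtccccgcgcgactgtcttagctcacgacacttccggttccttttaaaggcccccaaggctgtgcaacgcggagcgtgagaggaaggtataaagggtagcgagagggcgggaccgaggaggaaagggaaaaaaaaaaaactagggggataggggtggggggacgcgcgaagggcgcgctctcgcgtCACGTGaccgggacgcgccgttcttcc
SRSF9: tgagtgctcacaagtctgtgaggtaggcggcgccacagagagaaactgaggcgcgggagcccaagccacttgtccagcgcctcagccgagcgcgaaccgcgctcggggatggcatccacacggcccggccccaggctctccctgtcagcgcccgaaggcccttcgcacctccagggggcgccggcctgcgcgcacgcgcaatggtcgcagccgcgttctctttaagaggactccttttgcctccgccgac
SRSF1: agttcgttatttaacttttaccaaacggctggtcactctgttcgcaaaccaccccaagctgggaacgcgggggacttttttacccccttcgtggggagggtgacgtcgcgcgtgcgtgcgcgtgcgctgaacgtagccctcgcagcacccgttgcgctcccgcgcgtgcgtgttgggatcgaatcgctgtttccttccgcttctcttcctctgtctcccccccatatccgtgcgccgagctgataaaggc
These are chr4:82373992-82374241, chr12:120469749-120469998 and chr17:58007247-58007496, all on the minus strand. HNRNPD has 1 match, which begins 27 bases before the start, and SRSF9 and SRSF1 have 0 in this stretch. Windows from 250 bases before to 50 after the gene start were also searched. CACGTG was found in 7 of 22 hnRNP genes (31.8%) and 0 of 12 SR genes with a listed window. A count of 0 allows up to 3 here. The share was 8.95% of 13819 windows of protein-coding genes and 13.1% of the 1026 of these whose gene had a wild-type peak. The 7 were HNRNPA3, HNRNPD, HNRNPDL, HNRNPH2, HNRNPH3, HNRNPM and HNRNPUL1, of which HNRNPD, HNRNPDL and HNRNPM had a wild-type peak. Among members with a listed window, the motif was in 3 of 16 with a wild-type peak (18.8%) and 4 of 18 without one (22.2%). Of the 9 members with a start peak and a listed window, 1 had the motif. A match is a run of letters, and no binding of MYC to DNA was measured here.

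**Figure D5:**
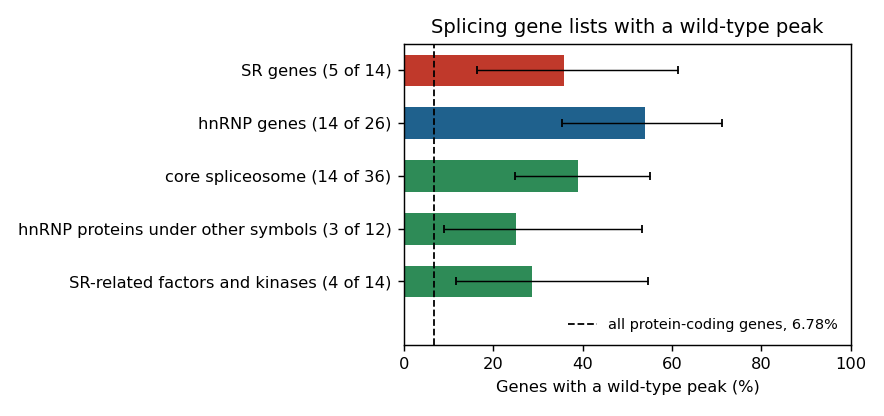
Bars are the share of genes with at least 1 wild-type peak, with 95% Wilson intervals over genes, in the SR and hnRNP families and 3 other lists of splicing genes, and the dashed line is the share of all protein-coding genes (6.78%). The hnRNP genes have the highest share, 53.8%, and all the intervals overlap each other. The intervals are not a test against the line. Genes are not replicates, and the lists were chosen with earlier results of these data known.

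Other genes of the splicing machinery also held wild-type peaks. Of 36 core spliceosome genes, 14 had one (38.9%) and 8 of these had one at the start, and the median fold enrichment was 8.02. Examples are PRPF19, a ubiquitin ligase of the spliceosome (19.2), the U5 GTPase gene EFTUD2 (13.4), the deubiquitinase-like tri-snRNP gene USP39 (13.1), the Sm protein genes SNRPB (12.8) and SNRPF (11.8), and the tri-snRNP gene SART1 (11.8). SNRNP200, the helicase that unwinds U4 from U6, had a wild-type start peak met by a 3A peak (fold enrichment 9.87 in the 3A list), and SNRPB had the only 7A peak of the 3 splicing lists (6.12 in the 7A list). Of 12 genes of hnRNP proteins under other symbols, 3 had a wild-type peak, PCBP2 (10.0), PCBP1 (6.15) and RALY (5.55). Of 14 SR-related factors and kinases, 4 had one, the kinase genes SRPK1 (12.9) and SRPK2 (12.5), RNPS1 (11.3) and SRRM2 (5.07), and none was at a gene start. The SRPK2 peak lay on the strand opposite to the gene. Among markers of bone and mesenchymal cells, VIM had 1 wild-type peak (1.97), SPARC had 2 7A peaks and the other 5 of 7 had none, and none of 8 markers of other cell types had a peak.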

How the data were processed

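The submitters' processing notes name hg38 as the build and list BWA, MACS2 and cutadapt. The sources used here give no version or setting for them, no control and no word on pooling. The deposited peak lists give a fold enrichment (a linear ratio), a −log10 q, a score derived from it, and the summit as an offset in bp. Folds of different lists were not compared.

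Positions were made 1-based. Genes, starts, strands and promoter sequences were those of RefSeq GRCh38.p14, the assembly of hg38. Strand was listed for 35 of 40 members, and any gene without a listed strand took that of its peak. A gene start was the end of its span on its strand, and shares of all genes used the same rules. Intervals are Wilson intervals at 95% and cover counting error only. A count of 0 allows up to 3. Reads from similar copies can be misplaced. The steps were tested on simulated peaks. Members and lists were chosen with earlier results of these data known. Members with a peak were named, and of other lists up to 6 genes by wild-type fold enrichment and those with a mutant peak. A single gene of the other lists is not reported here and was left out of its list's count. Python 3.11.15, pandas 2.3.3, NumPy 2.4.6, SciPy 1.17.1 and matplotlib 3.10.9 were used.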

Additional observations from a re-analysis of the deposited data

How the results depend on the processing

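Of 52 alternative values of 11 results, 41 stayed within 1.5 times of the reported count or within the 95% interval of the reported share or median. Counting a peak by its summit, by the shortest gene that holds it, on the gene's strand, or at a −log10 q of at least 5 left every count of members and of peaks as reported. When summits had to lie within 100 bp of each other, 2 rather than 3 member peaks were met by a 3A peak. With only the upper part of each list, from its median fold enrichment on, 12 members had a wild-type peak, 8 of them hnRNP genes. There was 1 member with a 3A peak. The 17 member peaks kept had a median fold enrichment of 9.92, a value that this cut raises by construction. The shares of all protein-coding genes after this cut were not counted. With as many wild-type peaks of highest −log10 q as the 3A list holds (103), 4 members had one, all hnRNP genes (4), and 0 SR genes did. With as many as the 7A list holds (88) the values were again 4, 4 and 0. The first SR peak ranked 107, and the shares of all protein-coding genes at these cuts were not counted. The share of member peaks at the start was 29.4% within 250 bp and 41.2% within 1000 bp. With the nearest listed start, a setting chosen after seeing the data, it was 38.2%. The share over all pairs was counted within 500 bp of the annotated start only. No paired analysis was possible because the lists carry no replicate values, and so none could be omitted in turn. Unknown depth and the few mutant peaks limit what can be said of 3A and 7A.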

Other observations

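Of 142 pseudogenes named after SR, TRA2 or hnRNP genes, 2 had a wild-type peak (1.41%, against 0.872% of all 17088 pseudogenes) and 0 had a mutant peak. In both, the fold enrichment was higher than in the gene they are named after. HNRNPKP4 had a peak at chr3:96349686-96349898 (fold enrichment 14.6, −log10 q 35.5), while the single peak of HNRNPK had 9.92 and 24.1. HNRNPRP1 had a peak at chr10:21625118-21625243 (fold enrichment 12.4, −log10 q 21.4), while the single peak of HNRNPR had 4.34 and 10.1. The HNRNPRP1 peak lay on the minus strand inside the span of MLLT10, whose listed strand is plus. Where the reads of these peaks came from was not tested, and no pseudogene of HNRNPA1 had a peak, while HNRNPA1 had 2.

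Members with a wild-type peak were about as long as those without, with medians of 12.5 and 11.5 kb. By family the medians were 8.08 and 16.0 kb for SR genes and 13.4 and 11.3 kb for hnRNP genes. Over all protein-coding genes they were 19.5 and 24.5 kb.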
